A study of Solanum lycopersicum with 30 samples.

Results

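Glycolysis and the enzymes next to it were represented by 6 gene symbols on a cDNA array hybridized with tomato leaf RNA: GPI, GAPDH, PGAM, PK, PDHE1-A and TK. These are the spots whose only symbol in the platform annotation is one of the 6, and they make up 17 of the 12590 cDNA clones with a value and 6 of the 430 single symbols. GAPDH had 8 clones, GPI, PGAM, PDHE1-A and TK had 2 each, and PK had 1. None of the gene identifiers behind the 6 symbols was in the tomato gene table (0 of 6 matched). The same held for the gene identifiers of all single symbols on the platform (0 of 430 matched). Whether the clones read the tomato genes of those symbols was therefore not established. The functions below are those usual for the symbol, with TK read as transketolase, and no chromosomal positions are given.

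The tomato (Solanum lycopersicum) plants were of 3 genotypes: sun1-1, a mutant in the N background with enhanced susceptibility, a line resistant to tobacco mosaic virus (TMV) that carries N, and a susceptible line, n. N is a resistance gene first described in tobacco. Plants aged 28 to 35 days, kept at 25 °C under 16 h light and 8 h dark, received TMV-containing leaf sap or mock leaf sap, and leaves were taken at 3, 9 or 27 h. Each array compared Cy3-labelled RNA of a TMV-treated plant with Cy5-labelled RNA of a mock-treated plant of the same genotype and time, each RNA from a single plant, with 3 arrays per time for sun1-1, 4 for resistant and 3 for susceptible plants, 30 in all. The 27 h titles of the mutant read sun1-(N) and were taken as sun1-1, and replicate 4 of the resistant line at 9 h and again at 27 h, 2 arrays, carry another time (3 h and 9 h) in the TMV protocol and were grouped by title.

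All values are log2 ratios between the 2 dyes of an array. The labels do not say which channel is the numerator, and no dyes were exchanged, so signs are as deposited: a positive value is more signal in the numerator channel, which may be TMV or mock, and the other reading turns every sign in the text and leaves sizes and tests as they are. A dye effect of a clone is part of each TMV against mock value, and drops out when genotypes or times are subtracted, where it is the same on all arrays. A ratio in whole-leaf RNA cannot tell fewer cells of a type from less RNA per cell. P-values measure the spread between these arrays only.

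In glycolysis, glucose 6-phosphate isomerase (GPI) turns glucose 6-phosphate into fructose 6-phosphate, glyceraldehyde 3-phosphate dehydrogenase (GAPDH) makes the NADH-yielding oxidation step, phosphoglycerate mutase (PGAM) moves the phosphate group of phosphoglycerate, and pyruvate kinase (PK) releases pyruvate with formation of ATP. The E1 alpha subunit of pyruvate dehydrogenase (PDHE1-A) belongs to the complex that turns pyruvate into acetyl-CoA and feeds the citric acid cycle. Transketolase (TK) moves carbon units between sugar phosphates in the pentose phosphate pathway and, in leaf chloroplasts, in the Calvin cycle. In infected leaves these routes are known to supply ATP, NADPH and carbon skeletons for defence compounds and for viral replication.

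Between 2173 and 9511 clones had a value on an array (median 6979.5), with an SD of the log2 ratios of 0.22 to 1.35. Sun1-1 3 h replicate 3 had the widest spread, with 40.1% of its clones at a 2-fold difference or more, and sun1-1 27 h replicate 1 came next with 12.5%. Any 2 arrays correlated across clones at between -0.57 and 0.55, with 20 of the 435 pairs below -0.3. Values of sun1-1 27 h replicate 2 had slipped by 1 row and were moved back. Over the 9 groups, 0% of the 60716 tests of TMV against mock passed an adjusted p of 0.05 (limma, Benjamini-Hochberg), and 6.77% had an unadjusted p under 0.05.

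Against that background, no change of the 6 genes between TMV and mock passed the test. Of 51 group tests of the members, 0 passed after adjustment and 6 had an unadjusted p under 0.05; after adjustment none of the 51 was below 0.250. The 6 were PDHE1-A in sun1-1 at 3 h, TK in resistant plants at 3 h and 9 h and in sun1-1 at 27 h, GAPDH in resistant plants at 3 h and PK in resistant plants at 27 h. Single arrays stayed within 2-fold for 5 of the genes, and TK passed 2-fold on 2 arrays.

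**Figure D1:**
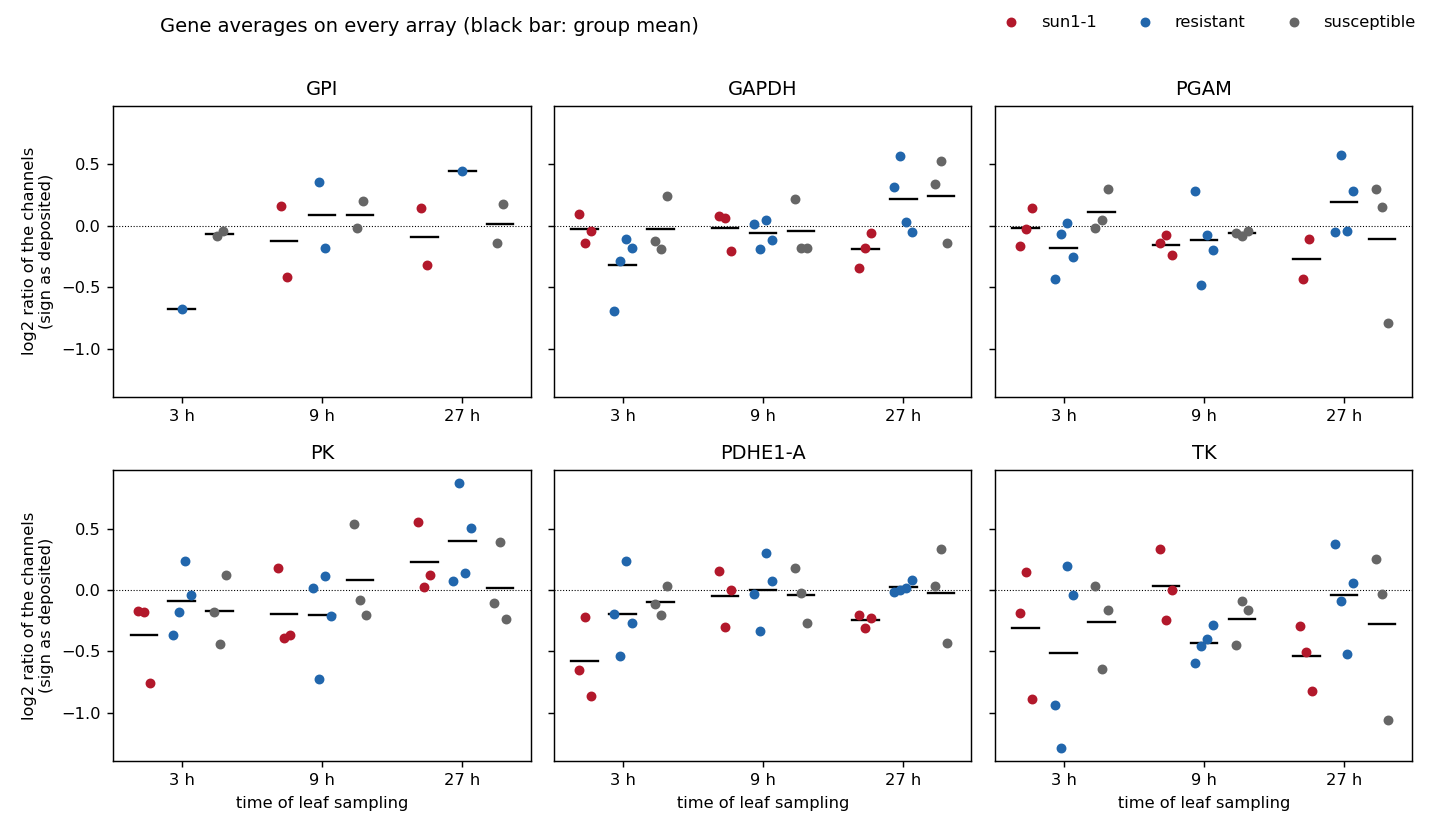
Log2 ratio of the channels, sign as deposited, for the 6 genes on every array at 3, 9 and 27 h, with sun1-1, resistant and susceptible plants from left to right at each time; points are arrays and black bars are group means (a single array where only 1 had a value). GAPDH, PGAM (2 sun1-1 arrays) and PDHE1-A of sun1-1 lie below those of resistant plants at 27 h, where 12.4% of all features do not overlap. The nearest GAPDH points there are -0.0556 and -0.0503. Most TK points lie below 0.

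GPI, at the entry of glycolysis, was the least measured gene, with a value on 14 of 30 arrays and on none of the sun1-1 arrays at 3 h. At 3 h it had -0.68 on the only resistant array with a value, against -0.09 and -0.05 on 2 susceptible arrays. At 9 h it had 0.16 and -0.41 in sun1-1, 0.36 and -0.18 in resistant and -0.02 and 0.20 in susceptible leaves. At 27 h it had 0.14 and -0.32 in sun1-1, 0.45 on 1 resistant array, and -0.14 and 0.18 in susceptible leaves. Both signs occurred in every group with 2 values except susceptible plants at 3 h. The pooled SD within groups was 0.288. The means of the 6 groups with 2 arrays lay between -0.13 (sun1-1, 9 h) and 0.09 (susceptible, 9 h), with gaps between neighbours of at most 0.0818. Here and below, the pooled SD is that of single arrays, and gaps between neighbouring ordered means tend to be small whatever their range. Gaps and SD are therefore descriptions and do not test whether groups differ. Its 2 clones were measured together on 5 arrays and had the same sign on all of them.

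GAPDH had a value on all 30 arrays, with a lowest value of -0.69, a median of -0.08 and a highest of 0.57, negative on 18 arrays and positive on 12. At 3 h it had 0.10, -0.14 and -0.04 in sun1-1, -0.69, -0.28, -0.11 and -0.18 in resistant, and -0.13, -0.19 and 0.24 in susceptible leaves. At 9 h it had 0.08, 0.07 and -0.20 in sun1-1, 0.01, -0.19, 0.05 and -0.12 in resistant, and 0.22, -0.18 and -0.18 in susceptible leaves. At 27 h it had -0.34, -0.18 and -0.06 in sun1-1, 0.31, 0.57, 0.03 and -0.05 in resistant, and 0.34, 0.53 and -0.14 in susceptible leaves.

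Resistant leaves at 3 h were thus negative on each of 4 arrays, which 12.6% of the features with a value on all arrays of that group also were. The group mean was -0.32 ± 0.26 (SD, n = 4) and did not pass limma's test (SE 0.125, 95% interval -0.57 to -0.06, adjusted p = 0.405). It was -0.19 without replicate 1, the array with -0.69. At 27 h the sun1-1 values were below 0 on all 3 arrays and below every resistant value. Of the features with a value on all arrays of that sun1-1 group, 12% were also negative on each. Sun1-1 and resistant arrays did not overlap at 27 h, in either direction, for 12.4% of the features tested. The highest GAPDH value of sun1-1 (-0.0556) and the lowest of the resistant group (-0.0503) all but met. Of the susceptible arrays, 1 (replicate 3) lay within the sun1-1 range. The order of the 9 group means ran from resistant 3 h (-0.32) to susceptible 27 h (0.24). The widest gap between neighbours in that order, 0.234 between sun1-1 9 h and resistant 27 h, was close to the pooled SD within groups of 0.224, and the other neighbours lay closer together than that SD.

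**Figure D2:**
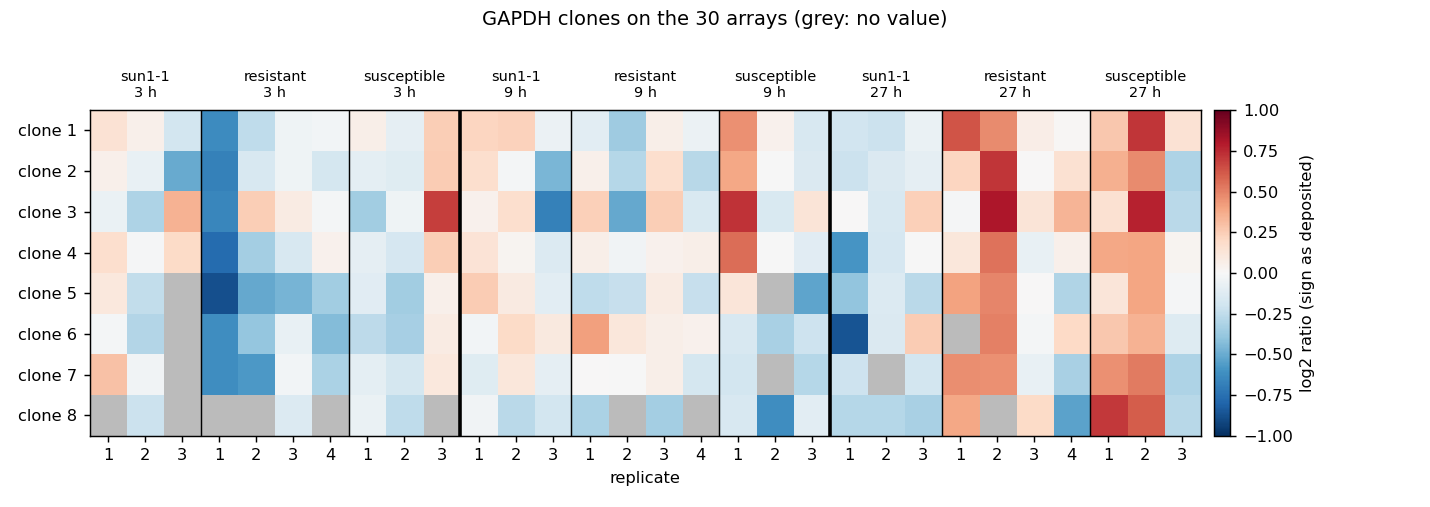
Log2 ratio, sign as deposited, of each of the 8 GAPDH clones (rows) on each of the 30 arrays (columns, by time and genotype; grey cells have no value). The columns of resistant 3 h replicate 1 (all blue) and of resistant and susceptible 27 h replicate 2 (all red) are alike over the clones, while susceptible 9 h replicate 1 runs from -0.18 to 0.73.

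The 8 GAPDH clones differed among themselves. Over the arrays that 2 clones shared, their Spearman correlation ran from -0.04 to 0.86 over 28 pairs with a median of 0.56, against a median of 0.77 over 558 pairs of clones of other symbols and 0.02 over pairs of different symbols; clones of a pair share the arrays, so these are descriptions. All measured clones were positive on 4 arrays and negative on 3. The clones were farthest apart on susceptible 9 h replicate 1, with 0.73 for clone 3 and -0.18 for clone 7. On sun1-1 3 h replicate 3, 4 of the 8 clones had a value, and the duplicate spots of clone 1 read 0.39 and -0.76. In resistant plants at 3 h all 7 clones with at least 2 arrays had a negative mean, from -0.55 to -0.09. At 27 h 7 of 8 had a negative mean in sun1-1 (-0.30 to 0.03), while all 8 were positive in resistant (0.01 to 0.31) and in susceptible plants (0.16 to 0.38). GAPDH is a family of cytosolic and plastid enzymes in plants, and which of them each clone reads is not given by the annotation.

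PGAM had a value on 29 arrays, with a lowest of -0.79, a median of -0.06 and a highest of 0.58, negative on 20 and positive on 9. At 3 h it had -0.17, -0.03 and 0.14 in sun1-1, -0.44, -0.06, 0.02 and -0.25 in resistant, and -0.02, 0.04 and 0.30 in susceptible leaves. At 9 h it had -0.14, -0.08 and -0.24 in sun1-1, 0.28, -0.48, -0.07 and -0.19 in resistant, and -0.06, -0.08 and -0.04 in susceptible leaves. At 27 h it had -0.43 and -0.11 on the 2 sun1-1 arrays with a value, -0.05, 0.58, -0.04 and 0.28 in resistant, and 0.30, 0.16 and -0.79 in susceptible leaves. The 27 h values spread widest, and the susceptible group there held both the second highest value of that time and the lowest of all arrays. Group means ran from -0.27 (sun1-1, 27 h) to 0.19 (resistant, 27 h), with gaps between neighbours of at most 0.126 against a pooled SD of 0.280. The 2 PGAM clones followed each other over 25 shared arrays (Pearson r = 0.85, Spearman rho = 0.71). On sun1-1 3 h replicate 3 the PGAM value of 0.14 averaged duplicate spots at -0.999 and 1.287 of the only PGAM clone measured there.

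PK was read by 1 clone on all 30 arrays, with a lowest value of -0.76, a median of -0.06 and a highest of 0.87. At 3 h it had -0.17, -0.18 and -0.76 in sun1-1, -0.37, -0.18, 0.23 and -0.04 in resistant, and -0.18, -0.44 and 0.12 in susceptible leaves. At 9 h it had 0.18, -0.40 and -0.37 in sun1-1, 0.01, -0.73, 0.12 and -0.22 in resistant, and 0.54, -0.08 and -0.21 in susceptible leaves. At 27 h it had 0.55, 0.02 and 0.12 in sun1-1, 0.08, 0.87, 0.14 and 0.51 in resistant, and -0.10, 0.39 and -0.23 in susceptible leaves. Sun1-1 and resistant leaves were positive on every array at 27 h, as 15.7% and 9.03% of the features with a value on all arrays of those groups were, and susceptible leaves were not. The resistant 27 h mean was 0.40 ± 0.37 (SD, n = 4; limma SE 0.165, adjusted p = 0.839), and it was 0.24 without replicate 2, the array with 0.87, and 0.36 without replicate 4, one of the arrays with another time in its protocol. Group means ran from -0.37 (sun1-1, 3 h) to 0.40 (resistant, 27 h) in steps of at most 0.167. The pooled SD of single arrays was 0.332. The sun1-1 value of -0.76 at 3 h came from a single spot on replicate 3, the array of the widest spread.

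PDHE1-A, between glycolysis and the citric acid cycle, had a value on all 30 arrays, with a lowest of -0.86, a median of -0.07 and a highest of 0.34. At 3 h it had -0.65, -0.22 and -0.86 in sun1-1, -0.20, -0.54, 0.24 and -0.27 in resistant, and -0.11, -0.21 and 0.03 in susceptible leaves. At 9 h it had 0.15, -0.30 and -0.0012 in sun1-1, -0.03, -0.33, 0.30 and 0.07 in resistant, and 0.18, -0.02 and -0.27 in susceptible leaves. At 27 h it had -0.20, -0.31 and -0.23 in sun1-1, -0.02, 0.00, 0.02 and 0.08 in resistant, and 0.03, 0.34 and -0.43 in susceptible leaves.

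The sun1-1 values at 3 h lay below all susceptible values of that time, though the nearest 2 were -0.220 in sun1-1 and -0.207 in susceptible leaves. The sun1-1 values at 27 h lay below all resistant ones. In these 2 comparisons 18.6% and 12.4% of the features tested had no overlap, in either direction. The sun1-1 3 h mean was -0.58 ± 0.33 (SD, n = 3), the lowest of the 9 groups by 0.331, with a pooled SD of single arrays of 0.247. Limma gave it an SE of 0.154, a 95% interval of -0.89 to -0.26 and an adjusted p of 0.250. On replicate 1 the first PDHE1-A clone had 0.05 and the second -1.36, the latter from a single spot, and on replicate 3, the array of the widest spread, the value of -0.86 also came from a single spot. The mean was -0.44 without replicate 3 (adjusted p = 1) and -0.37 with the sparse second clone left out (adjusted p = 0.406). Over all arrays the 2 clones shared 13, where Spearman's rho was 0.19 and Pearson's r 0.10.

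TK had a value on all 30 arrays and was negative on 22 of them, with a lowest value of -1.28, a median of -0.22 and a highest of 0.38. At 3 h it had -0.19, 0.14 and -0.89 in sun1-1, -0.93, -1.28, 0.19 and -0.04 in resistant, and 0.03, -0.64 and -0.16 in susceptible leaves. At 9 h it had 0.33, -0.25 and 0 in sun1-1, -0.60, -0.45, -0.40 and -0.28 in resistant, and -0.45, -0.09 and -0.16 in susceptible leaves. At 27 h it had -0.29, -0.50 and -0.82 in sun1-1, 0.38, -0.09, -0.52 and 0.06 in resistant, and 0.26, -0.04 and -1.06 in susceptible leaves.

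Of the 9 group means of TK, 8 were below 0 and that of sun1-1 at 9 h (0.03) was above it. Values were negative on every array in resistant and susceptible plants at 9 h and in sun1-1 at 27 h, as were 7.04%, 13.4% and 12% of the features with a value on all arrays of those groups. The largest means were -0.54 ± 0.27 in sun1-1 at 27 h (SD, n = 3; limma adjusted p = 0.501), -0.52 ± 0.70 in resistant plants at 3 h (SD, n = 4; adjusted p = 0.405) and -0.43 ± 0.13 in resistant plants at 9 h (SD, n = 4; adjusted p = 0.798). In resistant plants at 3 h replicates 1 and 2 were near or beyond 2-fold and replicates 3 and 4 near 0, and the mean was -0.26 without replicate 2. Resistant plants at 9 h had -0.48 without replicate 4, and sun1-1 at 27 h had -0.56 without the displaced array. The steps between neighbouring group means were at most 0.190, against a pooled SD of 0.441. Averaged over the 9 groups, a comparison chosen once the values were known, TK had -0.29 (SE 0.077, 95% interval -0.45 to -0.13, adjusted p = 0.171); in it 0.0724% of 4142 features passed. Of the 626 features with a value on every array, 1.6% were negative on 22 or more and 4.47% had 22 or more values of 1 sign. Since all arrays carry TMV in the same dye, a dye effect of the TK clones and an effect of TMV cannot be told apart in these counts.

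**Figure D3:**
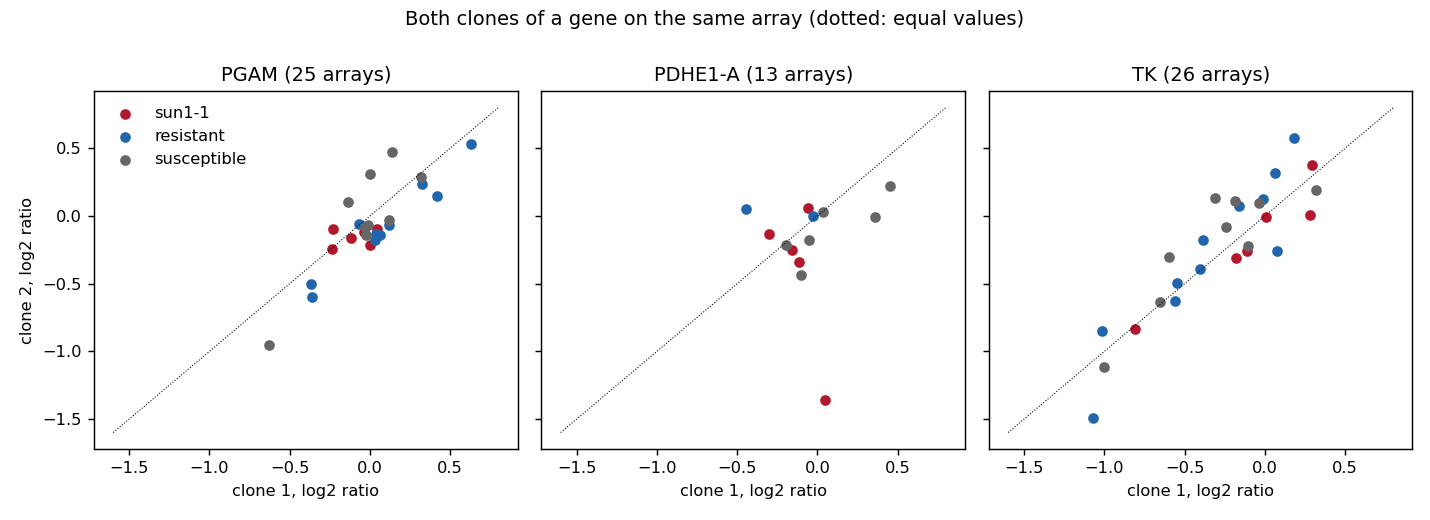
Log2 ratio of the first clone (horizontal axis) and of the second clone (vertical axis) of PGAM, PDHE1-A and TK, sign as deposited, 1 point per array with both values, coloured by genotype; the dotted line marks equal values. PGAM and TK points follow the line over 25 and 26 arrays, and the PDHE1-A point far below it is sun1-1 3 h replicate 1.

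The 2 TK clones were negative on 22 of 29 and on 17 of 27 arrays. GAPDH clone 8 was negative on 17 of 21 and PGAM clone 2 on 18 of 26, while GAPDH clone 3 was positive on 17 of 30. The TK gene value averages its 2 clones, so they are no separate evidence. Over the 26 arrays with both TK clones Pearson's r was 0.89 and Spearman's rho 0.83. Clone means had the same sign in all 9 groups, with -0.55 and -0.49 in resistant plants at 3 h and -0.66 and -0.56 in sun1-1 at 27 h. Duplicate spots of the member clones differed by a median of 0.064 to 0.170 per clone. On single arrays they could lie much farther apart, as on sun1-1 3 h replicate 3 for GAPDH and PGAM.

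Averaged over the 3 genotypes, no member passed the test at any time. At 3 h all 5 genes tested had a negative mean, with a median of -0.21 against 0.02 over 5357 features. Of 16 tests over the 3 times 0 of the members passed, and 0.0316% of all features did (0.0933% at 3 h); 3 member tests had an unadjusted p under 0.05, against 9.48% of all. PDHE1-A had -0.29 at 3 h (SE 0.085, adjusted p = 0.128) and TK -0.36 at 3 h (SE 0.133, adjusted p = 0.180) and -0.29 at 27 h (adjusted p = 0.574), the last of which was -0.16 without susceptible 27 h replicate 3. PK had -0.21 at 3 h (adjusted p = 0.306), -0.10 at 9 h (adjusted p = 1) and 0.21 at 27 h (adjusted p = 0.595). At 9 h the 6 genes lay between -0.21 and 0.02. In the fit by clone 0.071% of all clones passed at 3 h, 0.0357% at 27 h and 0.091% in the mean of the 9 groups, and 0 of the member clones did. Without sun1-1 3 h replicate 3, the array of the widest spread, the 3 h means were -0.24 for PDHE1-A (adjusted p = 0.292), -0.27 for TK (adjusted p = 0.405) and -0.14 for PK (adjusted p = 0.571).

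The genotype differences asked whether sun1-1 or resistant leaves responded unlike the others at a given time. No difference of a member passed: 0 of 49 tests, with 0% of 52089 over all features, and 3 with an unadjusted p under 0.05, against 5.46% of all. Of the 9 comparisons, sun1-1 against resistant leaves at 27 h, singled out with the values known, was that in which the members differed most in 1 direction. All 5 genes tested had a negative difference there, with a median of -0.41 against 0.01 over 6059 features, and GAPDH, PGAM and PDHE1-A did not overlap between the groups, as was so for 12.4% of the features tested. Sun1-1 minus susceptible at 3 h was also negative for all 5 genes tested, with a median of -0.13.

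**Figure D4:**
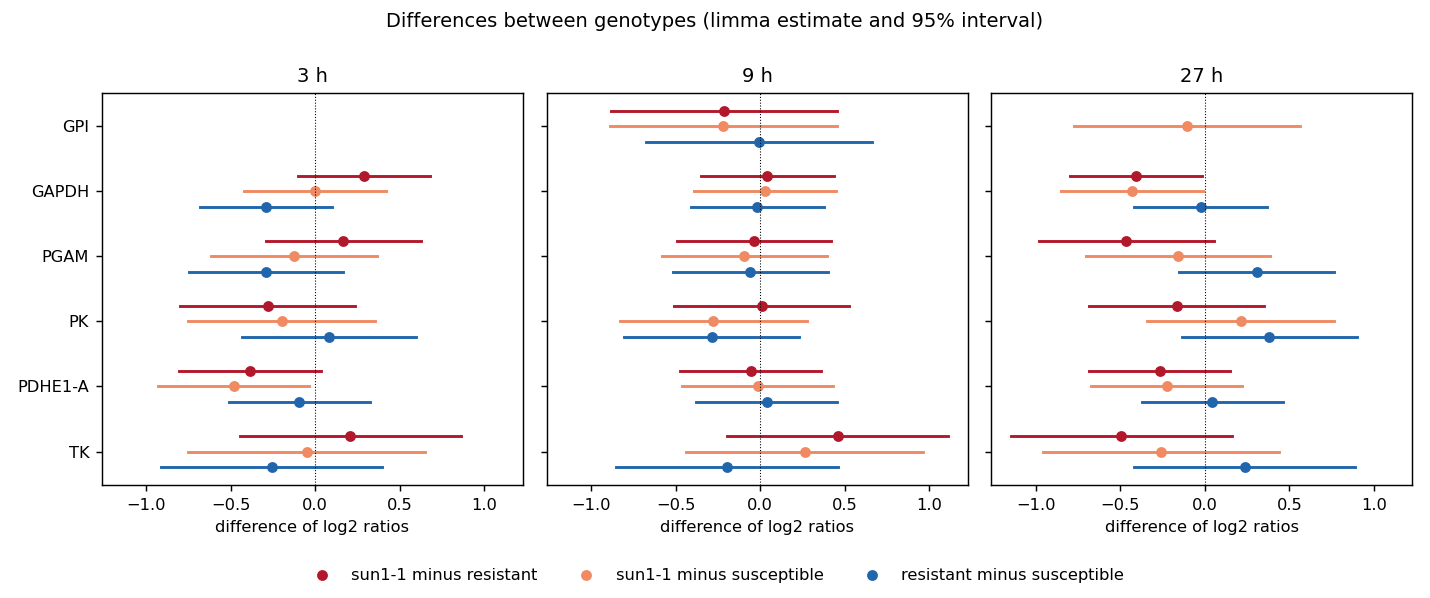
Difference of log2 ratios between genotypes at 3, 9 and 27 h for each gene, limma estimate (point) and 95% interval (line), for sun1-1 minus resistant, sun1-1 minus susceptible and resistant minus susceptible from top to bottom. At 27 h all sun1-1 minus resistant points lie below 0, from -0.50 to -0.17, and the intervals of GAPDH in both sun1-1 comparisons leave out 0 by at most 0.02.

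GAPDH of sun1-1 minus resistant at 27 h was -0.41 (SE 0.191, 95% interval -0.80 to -0.02, adjusted p = 0.910). PGAM was -0.46 (interval -0.98 to 0.05, 2 sun1-1 arrays, adjusted p = 0.910). TK was -0.50 (interval -1.15 to 0.16, adjusted p = 0.910). Of these intervals that of GAPDH alone left out 0. PDHE1-A was -0.27 (interval -0.69 to 0.15) and PK -0.17 (interval -0.68 to 0.35). Without resistant 27 h replicate 2, the highest resistant array for 3 of the genes, GAPDH was -0.29, PGAM -0.34 and PK -0.01, and without sun1-1 27 h replicate 1, the array of the second widest spread, GAPDH was -0.33. Without the resistant arrays whose protocol names another time, GAPDH was -0.50, PGAM -0.44, TK -0.46, PDHE1-A -0.25 and PK -0.13, and without the displaced sun1-1 array GAPDH was -0.41, TK -0.51, PDHE1-A -0.24 and PK -0.06.

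Sun1-1 minus susceptible at 27 h was negative for 5 of 6 genes, and the groups overlapped for each of them, where 20.9% of all features did not overlap. GAPDH was -0.43 there (95% interval -0.85 to -0.01, adjusted p = 0.393), and -0.63 without susceptible 27 h replicate 3, the lowest susceptible array for every gene measured on it. The 2 differences share the sun1-1 arrays and are no separate evidence. Resistant minus susceptible at 27 h had GAPDH at -0.03 (interval -0.42 to 0.37), PGAM at 0.31 (-0.15 to 0.76), PK at 0.38 (-0.14 to 0.90), PDHE1-A at 0.04 (-0.38 to 0.46) and TK at 0.24 (-0.42 to 0.89), with overlap for every gene (11.6% of all features had none). A difference of 2-fold lay outside each of these 5 intervals. Without susceptible 27 h replicate 3 the signs of PGAM (-0.03), PDHE1-A (-0.16) and TK (-0.15) turned, and GAPDH was -0.22 and PK 0.25. Without resistant 27 h replicate 2, GAPDH was -0.14, PGAM 0.18 and PK 0.22.

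At 3 h, sun1-1 minus susceptible was -0.48 for PDHE1-A (95% interval -0.93 to -0.04, adjusted p = 0.921), the only member without overlap there (18.6% of all features), and it rests on the sun1-1 arrays with the single spots described above, with -0.34 without replicate 3. Sun1-1 minus resistant at 3 h was 0.29 for GAPDH (interval -0.10 to 0.68) and -0.39 for PDHE1-A (interval -0.80 to 0.03), the second of which was -0.25 without sun1-1 3 h replicate 3, with overlap for all members (16.5% of all features had none). Resistant minus susceptible at 3 h was -0.29 for both GAPDH and PGAM, again with overlap (10.8%). Without resistant 3 h replicate 1, GAPDH was 0.16 in sun1-1 minus resistant and -0.16 in resistant minus susceptible leaves, and PGAM was -0.21 in the second. At 9 h the only member without overlap was TK in sun1-1 against resistant leaves, with a difference of 0.46 (interval -0.19 to 1.12, adjusted p = 1; 8.53% of all features had no overlap), 0.51 without resistant 9 h replicate 4 and 0.25 without replicate 1 of every group. No other comparison at 9 h had a member without overlap, where 16% (sun1-1 against susceptible) and 19.3% (resistant against susceptible) of the features had none.

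No change over time passed either. The F test over 3, 9 and 27 h gave 0 of 16 member tests past the adjusted threshold and 2 with an unadjusted p under 0.05, with 0% and 6.64% over all features. The 2 were GAPDH in resistant leaves (F = 4.52, adjusted p = 0.756) and PK in resistant leaves (F = 3.71, adjusted p = 0.756), with F at 2.64 and 1.72 without resistant 27 h replicate 2. In the comparison of 27 h with 3 h, added after the data were seen, 0 of 16 member tests passed and 3 had an unadjusted p under 0.05 (7.07% of all features), and all 5 genes tested in resistant leaves had a positive difference, with a median of 0.47 against -0.0018 over 5388 features. GAPDH differed by 0.53 (SE 0.177, 95% interval 0.17 to 0.90, adjusted p = 0.875) with no overlap between the 4 arrays at 27 h and the 4 at 3 h (13% of all features), by 0.41 without resistant 27 h replicate 2 and by 0.62 without the resistant arrays whose protocol names another time. The nearest arrays had -0.05 at 27 h and -0.11 at 3 h. The 3 h mean was -0.19 without replicate 1, and leaving out each replicate number in turn gave differences of 0.37 to 0.67. PK differed by 0.48 in resistant leaves (interval 0.0055 to 0.96; 0.33 without resistant 27 h replicate 2) and by 0.60 in sun1-1 (interval 0.05 to 1.15, adjusted p = 0.562), where its arrays did not overlap either (21.3% of all features) and the difference was 0.40 without sun1-1 3 h replicate 3. In susceptible leaves no gene was free of overlap between 27 h and 3 h (20.7% of all features were), and GAPDH differed by 0.27 (interval -0.15 to 0.69), and by 0.46 without susceptible 27 h replicate 3.

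The genes also shared whole arrays. Every measured member was negative on resistant 3 h replicates 1, 2 and 4, resistant 9 h replicate 2, susceptible 9 h replicate 2 and susceptible 27 h replicate 3, while resistant 27 h replicate 2 and susceptible 27 h replicate 2 had all members but TK above 0. The median over all features on these arrays lay between -0.01 and 0.03. Across arrays the closest members were PK and PDHE1-A (Spearman's rho 0.61, n = 30 arrays) and GAPDH and PGAM (rho 0.56, n = 29), and the 15 pairs of members lay between -0.02 and 0.61. The points share array, dye and plant, so the correlations are descriptions.

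Of the other single symbols, those most like each gene over at least 20 arrays were UCP (rho 0.76, 21 arrays) and LOC102601464 (0.68, 30 arrays) for GAPDH, and LOC102596607 and SS16 (0.65 each, 29 arrays) for PGAM. For PK they were LOC102577726 (0.77, 29 arrays) and LOC102589666 (0.76, 30 arrays), and for PDHE1-A LOC102578902 (0.65, 30 arrays) and PEST2 (0.63, 29 arrays). For TK they were LPD2 (0.70, 28 arrays) and LOC102577500 (0.68, 26 arrays). They were the 2 highest of the 327 to 334 symbols compared for each gene, whose median rho was 0.01 to 0.10, and GPI had too few arrays.

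Other carbon enzymes found by their symbol gave no call either. Of the list of 104 symbols of the pathway, ADH1, alcohol dehydrogenase, was the only non-member among the 430 single symbols. Clones of the same enzymes under another name or without a symbol were not searched for. ADH1 had values on 12 arrays, from -0.38 to 0.69 with a median of 0.26, and 0 of its 3 group tests passed. A further 9 symbols of sugar and starch metabolism were taken up after the platform's symbols were seen (LDH-2, PAIN-1, HXKRP1, STP-1, GBSS, AMYA1, STUGE45, STUGE51 and SUT2), and 0 passed in any comparison where they could be tested. Many had too few arrays, and SUT2, with values on 2 arrays in different groups, could not be tested at all. LDH-2, whose symbol stands for lactate dehydrogenase, averaged 0.37 over the 3 genotypes at 3 h (SE 0.135, adjusted p = 0.195). That was the smallest adjusted p of the list in the means over genotypes. Of the 9 symbols, 3 could be tested there at 3 h, 2 at 9 h and 3 at 27 h. The LDH-2 means at 3 h, from 1 clone, were unlike: -0.05 in sun1-1 (n = 2 arrays), 0.64 in resistant (n = 2) and 0.53 in susceptible leaves (n = 3). Of 15 photosynthesis symbols that would mark leaf, PSBR, a photosystem II protein, and THF1 were among the single symbols, and 0 tests of them passed. A ratio gives no level, so the leaf identity of the RNA could not be checked with them.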

How the data were processed

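Leaf RNA was measured on 30 2-colour cDNA arrays. The deposited values are log2 ratios per spot, with array medians between -0.013 and 0.029. Per the submitters' processing notes, limma was used, with no version. The scanner, background correction, normalization and the filter behind the empty cells (65.0% of all) are not given in the sources used here. That the base is 2 follows from the decimals of the values. The number of arrays limits the precision, and depth has no meaning for them.

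The spots of a clone were paired through a fixed layout that all 905 annotated pairs followed (15360 pairs) and averaged, and clones of a single symbol were averaged to a gene. Every other clone stayed a feature of its own. One column, sun1-1 27 h replicate 2, was moved by 1 row: the mean size of its correlations with the remaining arrays was 0.174 moved and 0.0120 as deposited.

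With R 4.3.3 and limma 3.58.1, each feature was given 1 mean per group (9 in all) (prior degrees of freedom 6.08, prior SD 0.326). A feature needed 2 arrays in each group compared. Benjamini-Hochberg adjustment ran over all features of a comparison, threshold 0.05. Intervals are 95% intervals of the fit. The method was tested on simulated data. All 6 members are named, with the 2 symbols most like each over at least 20 arrays. The members, lists and tests were chosen with earlier results of these data known. The 27 h against 3 h comparison and the mean of the 9 groups were added with the values known. Alternatives were centring, scaling, array weights, a replicate block, arrays left out, the column as deposited, single-symbol features only, a filter on sparse clones (under 20 arrays) and the median of clones. No member sequences were used here.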

Additional observations from a re-analysis of the deposited data

How the results depend on the processing

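No member passed the adjusted threshold under any of 19 alternatives (limma, adjusted p over all features; 2 to 6 member tests as reported of each kind of comparison were under 0.05 before adjustment). After it, the smallest p was 0.0506, for the mean of TK over the 9 groups with array quality weights (-0.27). Of 2541 values under the alternatives, 105 changed sign, and none of these was larger than 0.306 as reported. Leaving out each replicate in turn moved the mean of PDHE1-A in sun1-1 at 3 h between -0.76 and -0.44, that of TK in resistant plants at 3 h between -0.75 and -0.26, and that of GAPDH in sun1-1 minus resistant at 27 h between -0.54 and -0.30. For the replicate numbers, arrays were correlated on clone values after subtraction of the group mean. Arrays of the same replicate number in different groups then had a mean correlation of -0.0211 over 111 pairs (30 above 0.1), others 0.00694 over 288 (87 above 0.1). Single pairs ran from -0.53 to 0.59 for the same number and from -0.54 to 0.53 for others. Pairs within a genotype were not separated from pairs across genotypes, so a pairing of the times within a genotype was not tested. With a replicate block, 0 of 153 member tests passed, and the lowest adjusted p was 0.2357, for PDHE1-A over the genotypes at 3 h; the mean of TK over the 9 groups was -0.23. Counts over all features moved more: in sun1-1 at 3 h 259 features passed without replicate 1 and 0 with it, and over the genotypes at 3 h 180 passed with array quality weights and 5 without; the cause was not tested. GPI could be tested in few groups, and no depth or background signal came with the ratios.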
